A study of Mus musculus with 6 samples.

Results

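Chemokine ligands are the secreted or shed proteins that guide leukocytes, and the genes described here are 9 of them (Ccl1, Ccl3, Ccl4, Ccl5, Ccl20, Ccl22, Cxcl10, Cxcl16 and Xcl1), matched by symbol to 9 of the 39179 mouse genes counted. Of the 9, 6 passed the count filter, as did 13846 genes in all. Ccl1, Cxcl10 and Xcl1 did not pass it. RNA was sequenced from Th17 cells, helper T cells that make interleukin 17, of C57BL/6 mice, in 3 libraries of cells grown with desIgf1 at 30 ng/mL and 3 control libraries of cells grown without it. The agent is a shortened form of insulin-like growth factor 1 with weak affinity for the carrier proteins of that hormone. All 6 libraries came from naive CD4+ T cells carrying reporters for Il17a (hCD2), Ifng (Thy1.1) and Foxp3 (GFP). Culture lasted 5 days on irradiated splenocytes without CD4+ cells, with IL-6 at 20 and TGF-β at 2.5 ng/mL, anti-CD3 at 5 µg/mL, and neutralizing antibodies against both IL-4 and IFN-γ at 10 µg/mL each, after which cells were sorted for the Il17a reporter and against the other reporters. The protocol text lists desIgf1 for every library, while the series design and the titles separate cultures with and without it, and the groups follow the titles. The labels do not say whether the libraries of a group came from separate animals or cultures, and the p-values thus cover the spread among these libraries, which may be technical.

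Chemokines are sorted into CC, CXC and C families by the spacing of their first conserved cysteines, and each signals through G protein-coupled receptors on the responding cell. CCL20 is the ligand of CCR6, the receptor that marks Th17 cells, and Th17 cells themselves are a known source of it. CCL22 binds CCR4 and is made mostly by dendritic cells and macrophages, but also by activated T cells, while CCL3, CCL4 and CCL5 are made by activated T cells.

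Ccl22 was the ligand gene that passed the edgeR test with the replicate number as a block (adjusted p = 0.0496). Without the block it passed neither edgeR (adjusted p = 0.702) nor DESeq2 (0.781) nor limma voom (0.646). Ccl20 was the most abundant of the 9 per length. For these reasons the sequences upstream of both genes are given here. Each is the 250 bases before the RefSeq start site, 5′ to 3′ on the strand of the gene, in GRCm38.p6. Ccl22 lies at chr8:94745434-94745683 (plus strand) and Ccl20 at chr1:83116516-83116765 (plus strand). The RefSeq start of Ccl22 lies inside the longer GENCODE gene model, so part of that window is within the model. Capitals mark matches to NF-κB letters, here GGG and CC with any 5 bases between them, on either strand, with overlapping matches run together.
Ccl22: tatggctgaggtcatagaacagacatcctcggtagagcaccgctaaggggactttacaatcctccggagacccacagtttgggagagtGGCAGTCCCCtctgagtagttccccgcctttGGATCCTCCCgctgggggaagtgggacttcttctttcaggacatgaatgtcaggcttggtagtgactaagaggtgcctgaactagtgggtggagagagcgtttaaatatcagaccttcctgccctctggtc
Ccl20: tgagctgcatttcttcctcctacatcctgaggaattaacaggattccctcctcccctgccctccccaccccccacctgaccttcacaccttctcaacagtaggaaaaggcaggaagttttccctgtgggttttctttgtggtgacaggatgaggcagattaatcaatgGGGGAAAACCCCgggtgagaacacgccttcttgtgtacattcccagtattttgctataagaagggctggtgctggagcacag
The Ccl22 sequence held 2 matches, both on the minus strand. The Ccl20 sequence held 3 overlapping matches in a single run of 12 bases. These letters occurred in 45.8% of the 32851 mouse upstream sequences of the same length, so a match is common and describes the letters alone. RefSeq gave such a sequence for 6 of the 9 genes (not Ccl4, Ccl5 and Cxcl16). NF-κB letters were also present upstream of Cxcl10 and Ccl1, and not in the windows of Ccl3 and Xcl1. The Ccl1 window (82179813 to 82180062) lies inside the longer GENCODE model of that gene. The ROR letters AGGTCA, on either strand, were present upstream of Ccl22, Ccl20 and Ccl3, and in 14% of all windows. The letters of interferon-response elements, here GAAA and GAAA with any 2 bases between them on either strand, were present upstream of Cxcl10 alone among the 6, and in 2.98% of all windows.

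In GENCODE M21 (GRCm38), 5 of the 9 genes lie on chromosome 11. Ccl5 (83525778 to 83530518), Ccl3 (83647844 to 83649355) and Ccl4 (83662584 to 83664683) belong to the CC chemokine cluster, where Ccl3 and Ccl4 are 13229 bases apart and face away from each other. Ccl1 (82176657 to 82305690), 59858 bases from the CC ligand gene Ccl8, lies nearer to the start of chromosome 11. Cxcl16 (70453983 to 70459984) lies nearer still. Ccl22 (ENSMUSG00000031779, chromosome 8, 94745590 to 94751699) is 20310 bases from Cx3cl1. Ccl20 (ENSMUSG00000026166, 83116766 to 83119167) and Xcl1 (164931644 to 164935527) lie far apart on chromosome 1, and Cxcl10 (chromosome 5, 92346638 to 92348889) is 10655 bases from Cxcl11. Only Cxcl10 and Cxcl16 overlapped another gene, Art3 and Zmynd15, both on the opposite strand and with at most 28 counts in any library. The strand setting of the counting is not given in the sources used here. Zmynd15 had 9, 21 and 19 counts with desIgf1 and 7, 11 and 28 in controls. Cxcl16 was of like size, with 15, 24 and 54 counts with desIgf1 and 9, 11 and 33 in controls. The low values of Cxcl10 and Cxcl16 are uncertain to that extent.

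Gene counts summed to 40081675 to 47929948 in desIgf1 libraries and 34567899 to 45874707 in controls, where 1 count was worth 0.0207 to 0.0286 CPM (counts scaled to library size, with TMM normalization factors). Of the transcripts behind the sort, Il17a read 125, 159 and 138 CPM in the desIgf1 libraries, against 87.6, 109 and 65.9 CPM in the controls, Ifng had 11, 1 and 11 counts against 28, 3 and 5, and Foxp3 was at 0.250, 0.237 and 1.80 CPM against 0.548, 0.281 and 1.69 CPM. Cd4 was abundant and Cd8a had at most 5 counts, while Cd8b1, the other CD8 chain, was at 4.98, 10.2 and 10.9 CPM with desIgf1, against 3.22, 5.96 and 7.81 CPM in controls. The first principal component of log2 CPM (43.5% of the variance) set both libraries numbered 3 apart from the other 4. The second (27.0%) set the groups apart, at 13.1, 39.8 and 16.7 with desIgf1 and -35.0, -22.3 and -12.3 in controls. Since several of the genes differed between the numbers more than between the groups, each is given by library, and differences are also given within each number.

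Ccl22 had the largest log2 fold change of the 6 tested ligand genes, in either direction. It was at 5.81, 5.63 and 35.2 CPM in desIgf1 libraries 1 to 3, against 1.45, 2.09 and 13.5 CPM in control libraries 1 to 3. The libraries numbered 3 were the highest of each group, and the groups overlapped because control library 3 lay above desIgf1 libraries 1 and 2. Within each number, the desIgf1 library was higher, with ratios of CPM of 4.01, 2.70 and 2.60 in numbers 1, 2 and 3. In the quasi-likelihood test of edgeR with group as its only term, the log2 fold change was 1.46 ± 1.06 SE (adjusted p = 0.702), outside the threshold. With the replicate number as a block, Ccl22 rose by 1.58 ± 0.18 SE on the log2 scale (95% interval 1.13 to 2.04, edgeR adjusted p = 0.0496), just inside that threshold of 0.05. The sign without the block rested on single libraries, since the log2 fold change was -0.0085 without desIgf1 library 3 and 3.14 without control library 3. With the block it was 1.40 to 1.71 when the libraries of any 1 number were left out, with edgeR adjusted p-values of at most 0.0383. Those fits reuse the same libraries and are no separate support. They called 72, 620 and 1069 of all genes without numbers 1, 2 and 3, against 44 in the full blocked fit. The full blocked fit itself has only 2 residual degrees of freedom. In bulk RNA, more cells that make a transcript and more transcript per cell cannot be told apart.

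**Figure D1:**
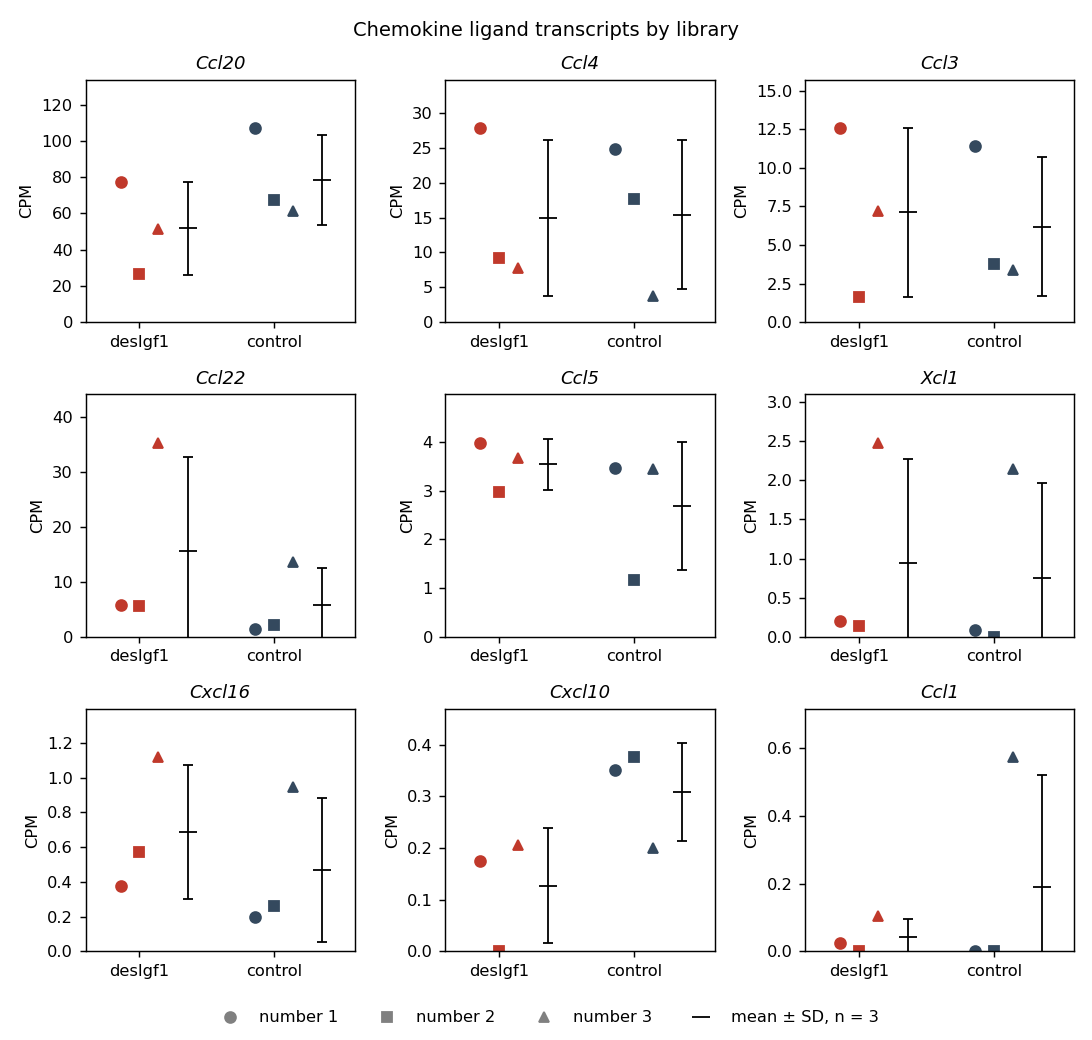
CPM of the 9 chemokine ligand genes (linear axes from 0) in each desIgf1 library (left) and control library (right), with symbols for the replicate number and bars for mean ± SD (n = 3, cut at 0). Ccl22, Cxcl16, Xcl1 and Ccl1 are highest in both libraries numbered 3, and the groups overlap for each of the 9 genes.

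Without the block, 0 of the 6 tested ligand genes were called by edgeR, as were 0 of all 13846 genes tested (0%), and 0 of the 6 had an unadjusted p under 0.05, against 8.16% of all genes. DESeq2 called 0 of the 6, against 1.48% of its 14097 genes (0.802% higher and 0.674% lower), and 0 of the 6 had an unadjusted p under 0.05 (9.36% of all). The test of limma voom called 0 of the 6 (0% of all), also with 0 at an unadjusted p under 0.05 (8.24% of all). With the block, edgeR called 1 of the 6, Ccl22, higher with desIgf1, against 0.318% of all genes (0.181% higher and 0.137% lower). Unadjusted p-values under 0.05 were given to 2 of the 6, Ccl22 and Ccl20, against 14.3% of all genes. The median log2 fold change of the 6 was 0.28 with the block, against 0.00299 over all genes. A total of 3 of the 6 (Ccl22, Ccl5 and Cxcl16) were higher with desIgf1 in all 3 numbers (20.9% of all genes), and 1, Ccl20, was lower in all 3 (17.2%). The groups overlapped for each of the 9 genes, while all desIgf1 libraries lay above all controls in 7.31% of the tested genes and below them in 6.18%.

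Ccl20 went the other way. It was at 77.6, 26.4 and 51.4 CPM in desIgf1 libraries 1 to 3, against 107, 67.3 and 61.6 CPM in control libraries 1 to 3. Library 1 was the highest in both groups, and desIgf1 library 1 lay above controls 2 and 3, so that the groups overlapped. The ratios of desIgf1 to control were 0.725, 0.392 and 0.834 in numbers 1, 2 and 3. Group means were 51.8 ± 25.6 CPM with desIgf1 and 78.6 ± 24.8 CPM in controls (SD, n = 3 each). The log2 fold change was -0.60 ± 0.39 (edgeR adjusted p = 0.676), and -0.69 ± 0.22 with the block (adjusted p = 0.258), so Ccl20 passed neither test. When the libraries numbered 3 were left out of the blocked fit it was -0.90 (edgeR adjusted p = 0.0202), the one setting run in which Ccl20 was called. That fit called 1069 of all genes, against 44 in the full blocked fit.

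**Figure D2:**
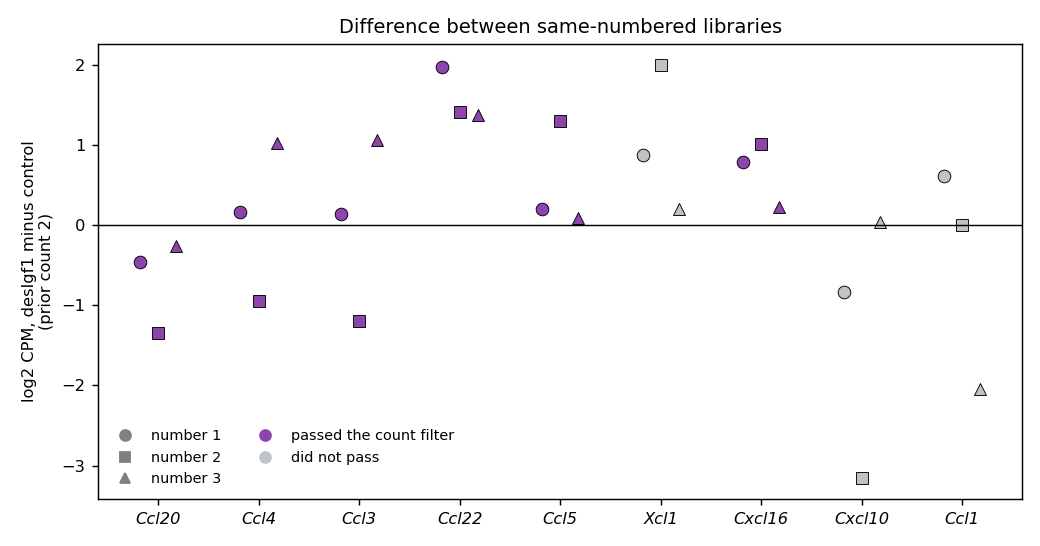
Difference in log2 CPM (prior count 2) between the desIgf1 and the control library of the same number, for each chemokine ligand gene, with grey symbols for the 3 genes that did not pass the count filter. Ccl22 lies between 1.38 and 1.97 in the 3 numbers and Ccl20 between -1.35 and -0.26, while Ccl3 and Ccl4 are below 0 in number 2 and above 0 in numbers 1 and 3.

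Ccl3 and Ccl4, the macrophage inflammatory proteins, gave no single direction. Ccl3 was at 12.6, 1.61 and 7.19 CPM with desIgf1, against 11.4, 3.75 and 3.41 CPM in controls 1 to 3. Ccl4 was at 27.8, 9.19 and 7.79 CPM with desIgf1, against 24.8, 17.7 and 3.81 CPM in controls. Both genes were highest in number 1 in each group. In number 2 both were lower with desIgf1 (ratios 0.430 for Ccl3 and 0.518 for Ccl4), in number 3 both were higher (2.11 and 2.05), and in number 1 the ratios were 1.10 and 1.12. With the block the log2 fold changes were 0.046 ± 0.42 for Ccl3 (95% interval -0.99 to 1.08, adjusted p = 0.972) and 0.057 ± 0.36 for Ccl4 (-0.83 to 0.94, adjusted p = 0.956). These intervals leave room for a change of up to about the size seen in a single number, in either direction.

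Ccl5, also known as RANTES, varied least over the 6 libraries among the tested ligands at a mean of at least 1 CPM. Its root-mean-square of log2 CPM around its own mean was 0.59, against 0.62 for Ccl20. Ccl5 was at 3.98, 2.97 and 3.66 CPM with desIgf1, against 3.46, 1.17 and 3.43 CPM in controls 1 to 3. Control library 2, with 50 counts, was the lowest, and the other 5 libraries lay between 2.97 and 3.98 CPM. The ratios were 1.15, 2.53 and 1.06, so that the difference in number 2 exceeded those of the other numbers. The log2 fold change was 0.39 ± 0.42 (adjusted p = 0.799), and 0.51 ± 0.30 with the block (adjusted p = 0.487). Without control library 2 it was 0.035.

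Cxcl16, a transmembrane chemokine that is shed by the protease ADAM10 and binds CXCR6, was low. It had 15, 24 and 54 counts in desIgf1 libraries, against 9, 11 and 33 in controls, or 0.375, 0.570 and 1.12 CPM against 0.197, 0.258 and 0.945 CPM. Each desIgf1 library was above its same-numbered control (by 0.79, 1.02 and 0.23 in log2 CPM), while control library 3 lay above desIgf1 libraries 1 and 2. The log2 fold change was 0.59 ± 0.68 (adjusted p = 0.818), and 0.70 ± 0.37 with the block (adjusted p = 0.444). Adam10 and Adam17, which encode sheddases, had log2 fold changes of 0.055 and 0.027 with the block (adjusted p = 0.797 and 0.911).

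**Figure D3:**
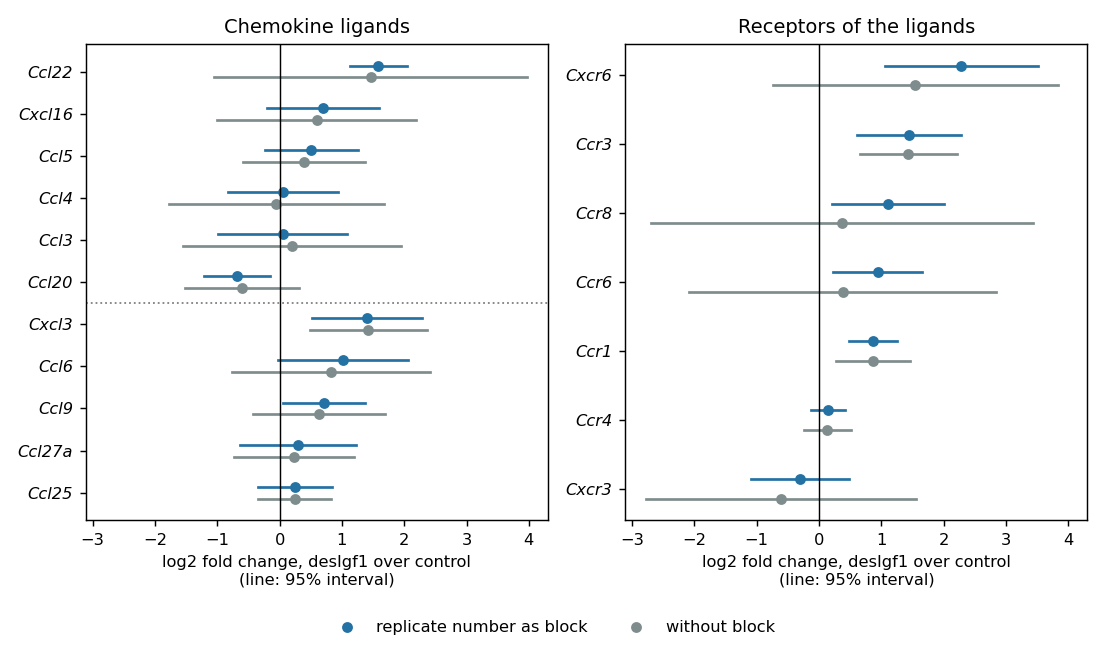
Log2 fold changes of desIgf1 over control with their 95% intervals, from edgeR with the replicate number as a block (blue) and without it (grey), for chemokine ligand genes (left, the 9 named genes above the dotted line where tested and other ligands below it) and for 7 receptors of the ligands (right). With the block, the intervals of Ccl22, Ccl20, Cxcl3 and Ccl9 lie to one side of 0 among the ligands, and of these 4 only Ccl22 passed adjustment over all genes.

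The other 3 genes did not pass the count filter and are given as counts. Xcl1, the C-family chemokine that binds XCR1, had 8, 6 and 120 counts with desIgf1, against 4, 0 and 75 in controls. Nearly all of its counts were in the libraries numbered 3, at 2.48 CPM with desIgf1 and 2.15 CPM in the control. Cxcl10, the interferon-induced ligand of CXCR3, had 7, 0 and 10 counts with desIgf1, against 16, 16 and 7 in controls, and its 0 in desIgf1 library 2 allows up to 0.0712 CPM (3 counts). Ccl1, the ligand of CCR8, had 1, 0 and 5 counts with desIgf1, against 0, 0 and 20 in controls, so that 25 of its 26 counts were in the libraries numbered 3. With no filter on low counts and the block, the log2 fold changes were 0.82 ± 0.56 for Xcl1, -1.38 ± 0.86 for Cxcl10 and -1.59 ± 1.34 for Ccl1, with edgeR adjusted p-values of 0.678 to 0.801. None of the 3 passed in these fits. Ccl1 and Cxcl10 had few counts in every library, and the counts of Xcl1 differed far more between the numbers than between the groups.

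Levels were compared between genes per exon length, as TPM (counts divided by the union exon length and scaled to the same total in each library). Ccl20 had the highest mean of the 9, at 141 ± 70.6 TPM with desIgf1 and 216 ± 68.8 TPM in controls (SD, n = 3 each). Ccl4 followed at 87.9 ± 66.4 and 91.4 ± 63.3 TPM, Ccl3 at 36.1 ± 27.9 and 31.6 ± 23.2 TPM, Ccl22 at 25.8 ± 28.2 and 9.58 ± 11.5 TPM, and Ccl5 at 14.3 ± 2.13 and 11.0 ± 5.39 TPM, with desIgf1 first in each pair. Next came Xcl1 (6.93 ± 9.81 and 5.58 ± 9.10 TPM), and Cxcl16, Cxcl10 and Ccl1 were below 1 TPM in both group means. Neighbours in this order overlapped in both groups, except Ccl20 and Ccl4 in controls, and Cxcl16 and Cxcl10 with desIgf1. Ccl20 ranked 1138 by mean TPM among the 37693 genes with an annotated length, Ccl4 ranked 2591 and Ccl22 ranked 7830.

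Among the summed TPM of the 9 genes, Ccl20 made up 45.3, 45.8 and 44.3% in desIgf1 libraries 1 to 3, against 56.9, 58.1 and 64.0% in controls 1 to 3. The groups did not overlap in this share, which was looked at after the values were seen and carries no test. Ccl22 made up 2.07, 5.96 and 18.6% with desIgf1, against 0.470, 1.10 and 8.60% in controls, and was highest in number 3 in each group. Ccl4 made up 35.0, 34.3 and 14.5% with desIgf1, against 28.4, 33.0 and 8.52% in controls.

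Similar profiles over the 6 libraries were sought among 10951 named genes at a mean of at least 1 CPM, by the root-mean-square difference of log2 CPM after each gene was centred on its mean. With so many genes and 6 libraries, a near profile is a description only. Nearest to Ccl22 were Ms4a4c (0.33) and Ccr6, the receptor of CCL20 (0.45), against a root-mean-square of 1.54 for Ccl22 around its own mean. Nearest to Ccl20 were Camk2n2 (0.21) and Neto2 (0.22), against 0.62 for Ccl20 itself. Ccl5 was nearest to Bcl6, a transcription factor of follicular helper T cells (0.17), and Cd200r4 (0.18), and Ccl4 to Fosl1, an AP-1 subunit (0.34), and Kbtbd8 (0.35). Ccl3 was nearest to Tcrg-C1 (0.50) and Il2, the gene of interleukin 2 (0.51), and stood farther from its neighbour Ccl4 (0.91) than from Ccl20 (0.63).

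Receptors of the ligands were measured in the same cells. Of the 8 receptor genes described, 7 were tested and Xcr1 had 0 counts in all 6 libraries. With the block, edgeR called 0 of the 7, against 0.318% of all genes, and without it 0 of the 7, against 0%. Unadjusted p-values were under 0.05 with the block for Ccr1, Ccr3, Ccr6, Ccr8 and Cxcr6, against 14.3% of all genes. Without the block they were under 0.05 for Ccr1 and Ccr3, against 8.16% of all genes. Ccr4, the receptor of CCL22, was the most abundant of the 8 per length and nearly level, at 308, 307 and 389 CPM with desIgf1, against 244, 329 and 345 CPM in controls (log2 0.14 ± 0.11 with the block, adjusted p = 0.597). Ccr6 was at 29.8, 46.1 and 153 CPM with desIgf1, against 12.1, 16.1 and 148 CPM in controls (blocked adjusted p = 0.249).

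Ccr1, another receptor of CCL3 and CCL5, and Ccr3, a receptor of CCL5, were higher in all 3 desIgf1 libraries than in any control, at 9.31, 14.4 and 10.1 CPM against 5.74, 7.83 and 4.95 CPM for Ccr1, and at 0.826, 0.854 and 0.785 CPM against 0.241, 0.352 and 0.315 CPM for Ccr3. All desIgf1 libraries lay above all controls in 7.31% of all tested genes. Neither Ccr1 nor Ccr3 passed (edgeR blocked adjusted p = 0.109 and 0.167). Cxcr6 was at 43.8, 81.7 and 140 CPM with desIgf1, against 7.65, 7.10 and 76.8 CPM in controls, with a blocked log2 fold change of 2.28 ± 0.50 (adjusted p = 0.153). Ccr8 was at 6.43, 13.4 and 59.4 CPM with desIgf1, against 2.43, 3.35 and 55.7 CPM in controls (blocked adjusted p = 0.276), and Cxcr3 stayed at or below 6.35 CPM (0.689). Ccr6, Ccr8, Cxcr6 and Cxcr3 shared with Ccl22, Cxcl16, Xcl1 and Ccl1 that both libraries numbered 3 were the highest of their group. Among 14 other chemokine receptor genes, 8 were tested and 1, Ccr2, was called with the block (against 0.318% of all genes). It was at 90.0, 134 and 32.6 CPM with desIgf1, against 18.2, 28.3 and 11.8 CPM in controls, lowest in number 3 in each group and without overlap, and rose by 2.01 ± 0.19 on the log2 scale (edgeR adjusted p = 0.0332, and 0.406 without the block). Cxcr5 was next (0.99 ± 0.38, adjusted p = 0.324).

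**Figure D4:**
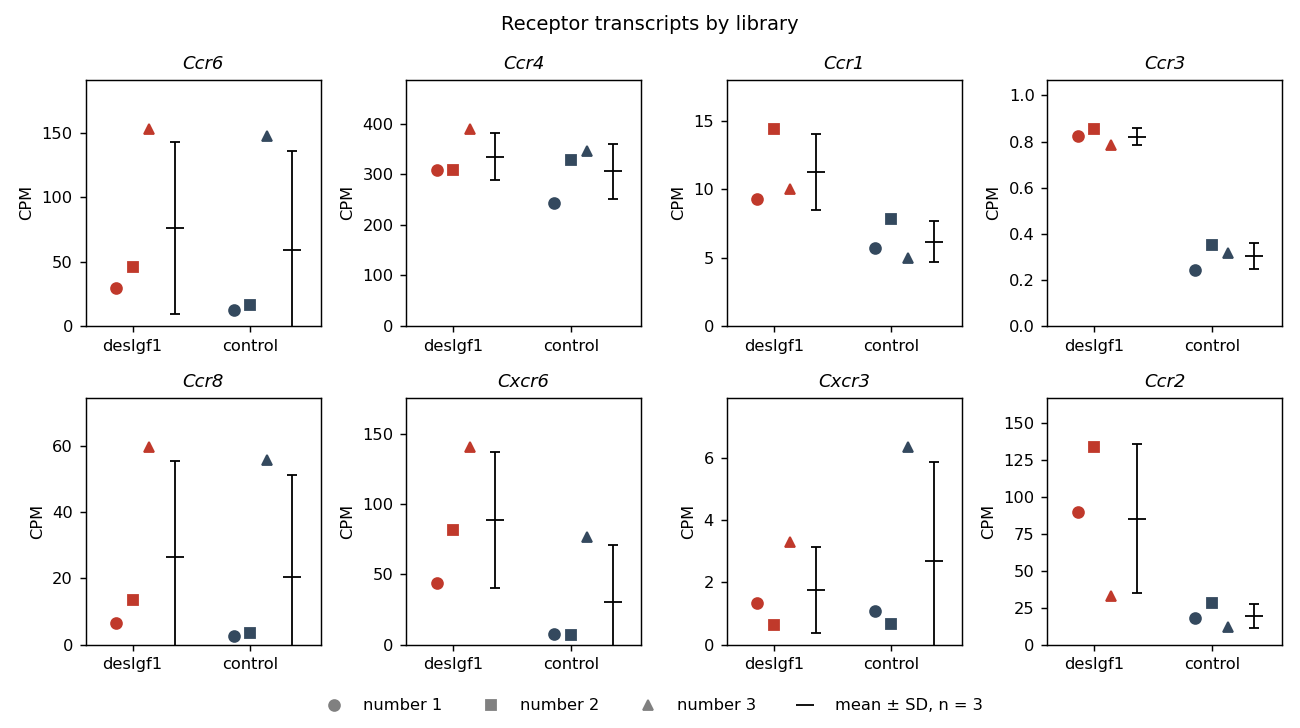
CPM of 7 receptors of the ligands and of Ccr2 (linear axes from 0) in each desIgf1 library (left) and control library (right), with symbols for the replicate number and bars for mean ± SD (n = 3, cut at 0). Ccr1, Ccr3 and Ccr2 do not overlap between groups, and Ccr6, Ccr8 and Cxcr6 are highest in both libraries numbered 3.

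Of 29 other chemokine ligand genes 5 were tested and 0 were called with or without the block by edgeR, and 12 had 0 counts in all 6 libraries. Cxcl3, a neutrophil-attracting ligand, had the smallest blocked p of these. It had 25, 36 and 57 counts with desIgf1, against 15, 10 and 15 in controls. Every desIgf1 library lay above every control, as in 7.31% of all tested genes (edgeR log2 1.40 ± 0.36 with the block, adjusted p = 0.184). Cxcl2, of the same family and named after its values were seen, had 6, 13 and 5 counts with desIgf1, against 1, 0 and 0 in controls, and did not pass the filter. Ccl9 was at 2.85, 2.78 and 1.55 CPM with desIgf1, against 2.39, 1.45 and 0.773 CPM in controls (blocked adjusted p = 0.318). Ccl17, the other ligand of CCR4 and likewise named after its values were seen, had 2, 4 and 77 counts with desIgf1, against 3, 9 and 17 in controls, and like Ccl22 was highest in the libraries numbered 3.

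Genes that act with or upstream of chemokines were described from lists, and none of their members was called by edgeR, whether or not the block was in the fit. In the list of chemokine processing and binding genes, Dpp4, a protease that trims chemokines such as CXCL10 and CCL22, was at 261, 349 and 164 CPM with desIgf1, against 112, 157 and 105 CPM in controls. Its log2 fold change was 1.05 ± 0.28 without the block (adjusted p = 0.417) and lay between 0.67 and 1.34 with it (95% interval, adjusted p = 0.0577), and DESeq2 called it (adjusted p = 0.0244). Sdc4, a heparan sulphate proteoglycan, was next (blocked adjusted p = 0.249). All 14 NF-κB subunit and feedback genes were tested. Their median log2 fold change was 0.24 with the block, against 0.00299 over all genes, and the smallest blocked adjusted p-values were those of Birc3 (log2 0.43 ± 0.10, 0.166) and Nfkbie (0.38 ± 0.10, 0.202).

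In the list of 16 NFAT and activation genes the median was 0.097 with the block. Tnf was at 84.9, 28.9 and 25.5 CPM with desIgf1, against 49.4, 16.4 and 15.2 CPM in controls (blocked log2 0.78 ± 0.095, adjusted p = 0.0512). Csf2, the gene of GM-CSF, was at 0.726, 1.16 and 1.12 CPM with desIgf1, against 0.197, 0.352 and 0.286 CPM in controls. It had a blocked adjusted p of 0.109 and was called by DESeq2 (adjusted p = 0.0305). Of 12 interferon-induced genes 10 were tested, and the 2 with the smallest blocked p lay on opposite sides, with Gbp2 at -1.64 ± 0.35 and Mx1 at 0.88 ± 0.24 on the log2 scale (adjusted p = 0.149 and 0.213).

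Cells other than Th17 cells can make these ligands, so their markers are given beside Ccl22. The 13 dendritic cell markers summed to 114, 123 and 165 CPM with desIgf1, against 78.8, 116 and 110 CPM in controls 1 to 3 (two-sided exact permutation p = 0.2, where 3 against 3 libraries cannot go below 0.1). Their ratios within numbers were 1.45, 1.06 and 1.51, against 4.01, 2.70 and 2.60 for Ccl22. Among them Xcr1, Cd209a and Siglech were at 0 in all 6 libraries, and Clec9a had no more than 2 counts. The other 9 passed the count filter, with a median log2 fold change of 0.48 with the block, against 0.00299 over all genes. Of the 13 markers, 8 had a higher mean with desIgf1, and H2-Ab1 and Cd74 were the most abundant. The 12 macrophage and monocyte markers summed to 156 to 181 CPM with desIgf1 and 95.3 to 182 CPM in controls (exact permutation p = 0.4). The 5 Th2 markers, among them Ccr8, summed to 47.0, 59.2 and 123 CPM with desIgf1, against 30.7, 26.8 and 108 CPM in controls (exact permutation p = 0.5). Like Ccl22, this sum was highest in the libraries numbered 3 and higher with desIgf1 within each number, with ratios of 1.53, 2.21 and 1.13. The markers did not move together. Of the 4 tested, 3 were higher with desIgf1 in all 3 numbers (20.9% of all tested genes). For 1, all controls lay above all desIgf1 libraries (6.18%). Ccr8 alone was at 59.4 CPM in desIgf1 library 3 and 55.7 CPM in control library 3. Sums for B cells (57.3 to 98.4 CPM with desIgf1, 69.4 to 177 CPM in controls), NK cells (at most 8.22 CPM), CD8 T cells (at most 11.0 CPM, nearly all Cd8b1, with ratios within numbers of 1.55, 1.71 and 1.40) and neutrophils (at most 1.16 CPM) overlapped between the groups, as did those of Th1 and regulatory T cells. The 8 Th17 markers, among them Il17a and Ccr6, summed to 2595, 3064 and 2802 CPM with desIgf1, against 2207, 1921 and 1961 CPM in controls. This sum did not overlap between the groups (exact permutation p = 0.1, the smallest possible). Among single tested genes, 7.31% had all desIgf1 libraries above all controls, and Il17a is the gene whose reporter was sorted for. The part of other cells in the Ccl22 values was not tested.

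**Figure D5:**
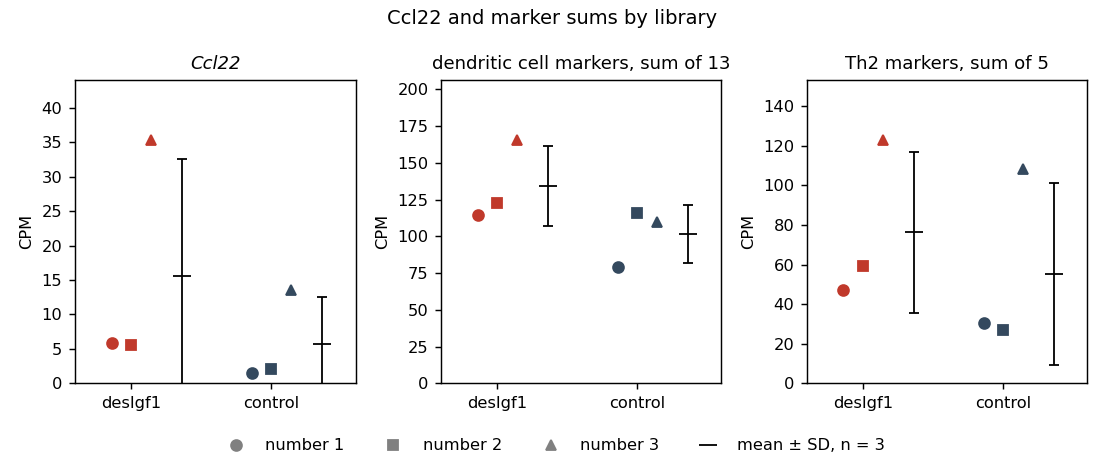
CPM of Ccl22 and summed CPM of 13 dendritic cell markers and 5 Th2 markers (linear axes from 0) in each desIgf1 library (left) and control library (right), with symbols for the replicate number and bars for mean ± SD (n = 3, cut at 0). Ccl22 and the Th2 sum are highest in both libraries numbered 3, and the dendritic cell sum is highest in desIgf1 library 3 at 165 CPM.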

How the data were processed

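The deposited values are raw counts per Ensembl gene, 1 file per library, with no normalization by the authors named in the labels. Per the submitters' processing notes, the software included HTSeq 0.7.2, STAR 2.5.3, Trim Galore 0.4.5 and SAMtools 0.1.18, beside R 3.4.3 with DESeq2 1.18.1, on GRCm38 (mm10), with no roles or settings given. Lines that name no gene were left out. Reads outside genes were 13.5 to 15.7% and ambiguous reads 0.712 to 0.761% of uniquely placed reads. Symbols and exon lengths came from GENCODE M21 for 37693 genes.

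All genes entered a robust quasi-likelihood fit of edgeR 4.0.16 (R 4.3.3) on group alone, after filterByExpr at a minimum count of 10 and with TMM factors. P-values were adjusted by Benjamini-Hochberg over every tested gene, with a threshold of 0.05. A standard error is the log2 fold change over the square root of F. The procedure was tested on data simulated with the same spread for all genes and no effect of the replicate number. These libraries do differ by number, so that test does not show how the fits perform on them. Alternatives were the replicate number as a block, DESeq2 1.42.0, limma 3.58.1 (voom), RLE factors, no count filter, and leaving out libraries.

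The titles of either group carry the numbers 1 to 3. Across genes, the deviation of a desIgf1 library from its group mean correlated with that of the same-numbered control at 0.59, 0.32 and 0.55, and with the other controls at no more than 0.048. The deviations within a group cancel out for each gene, so a positive value with a control lowers the values with the others. The contrast is thus partly built in. The pairing used in the block rests on this check of the same data, since no label says what a number stands for. No 2 libraries of a group were copies (chi-square per degree of freedom 40.5 to 130).

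A receptor gene is not reported here. The 9 genes and the lists were chosen with earlier results of these data known. Named were the 9 genes, their receptors, called list members, the 2 list members with the smallest blocked p, and the 2 nearest profiles of each tested ligand at a mean of at least 1 CPM.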

Additional observations from a re-analysis of the deposited data

How the results depend on the processing

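Over all genes, the count of called genes was 0 without the block, 44 with the replicate number as a block, 208 in DESeq2, 16 with no count filter, and 281 with both the block and no filter (a combination chosen after seeing the data). It was 0 in limma voom, with RLE factors and without any single library. With the block it was 72, 620 and 1069 without the libraries numbered 1, 2 and 3. Of the chemokine ligand genes, 0 were called without the block and 1, Ccl22, with it, with or without the count filter. With the libraries of 1 number left out of the blocked fit, 1 to 2 were called. Other than Ccl22, and Ccl20 without the libraries numbered 3, the block changed no call among these genes.

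The signs of Ccl3 and Ccl4 depended on the setting. Ccl3 was at -0.035 in limma voom, -0.49 to 0.99 without single libraries and -0.44 to 0.58 with the block and the libraries of 1 number left out (-0.037 without number 1). Ccl4 was at 0.057 with the block, 0.062 with the block and no filter, -0.87 to 0.47 without single libraries and, with the block and the libraries of 1 number left out, -0.37 to 0.55 (0.015 without number 1 and -0.37 without number 3). Ccl22 ran from -0.0085 to 3.14 without single libraries. The cause was not tested. Ccl20, Ccl5 and Cxcl16 kept their sign in each setting run. Low counts limit Ccl1 and Cxcl10, with 26 and 56 counts over the 6 libraries. Xcl1 had 213, mostly in the libraries numbered 3.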
